A study of Argopecten irradians with 2 samples.

Results

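The unigenes described here are the abundant transcripts of bay scallop gill whose level differed at least 2-fold between a control and an okadaic acid (OA)-exposed library. They were chosen by the deposited FPKM (fragments per kilobase of transcript, scaled to the mapped fragments of the library). A member had a mean FPKM of the libraries of 100 or more and under 1000, a length under 10000 bp, and a ratio of OA-exposed to control FPKM of 2 or more or of 0.5 or less. Contigs of clusters with 8 or more listed IDs were left out. Of 59688 unigenes, 427 met the limits on abundance, length and cluster size and were eligible, and 97 of these were members. Of the members, 44 were higher in the OA-exposed library (risers) and 53 were lower (fallers). Because the ratio itself selected them, the ratios below are a description and carry no test.

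Gill of *Argopecten irradians* was sequenced as 1 control library, from scallops kept with the DMSO vehicle, and 1 OA-exposed library, from scallops kept for 48 h with 500 nM OA in the same vehicle. By the description of the series each library pooled 18 individuals, while the methods describe smaller pools, made per replicate tank, so the makeup of a library is not certain. With 1 library per condition there was no replicate check, and the variation between pools is unknown. The control library held 11522064 and the OA-exposed library 11607306 estimated fragments.

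OA is a polyether toxin of dinoflagellates and the representative toxin of diarrhetic shellfish poisoning. It inhibits serine/threonine protein phosphatases, the enzymes that remove phosphate groups added by kinases, and so disturbs the balance of protein phosphorylation in a cell. The gill of a scallop filters food particles from the water and exchanges gases through a ciliated epithelium, and it is among the first organs that a waterborne toxin meets. In animal tissues the abundant messenger RNAs commonly come from genes for ribosomal proteins, mitochondrial proteins and the cytoskeleton. The deposited files list unigenes by assembly ID, without gene names or sequences, so no role can be given for any member, and the tissue could not be checked against marker genes. A unigene is an assembled transcript sequence. A singleton, with an ID that starts with Unigene, stands alone, and a contig, with an ID that starts with CL, shares a cluster with similar sequences. By a rule, 4 unigenes are named below, and the others are identified by their length.

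The risers made up 10.3% of the 427 eligible unigenes and the fallers 12.4%. These shares follow from the rule and are given as the background of the counts. Among the 4933 unigenes of 10 to 100 FPKM under the same limits on length and cluster size, 14.4% were at least 2-fold higher in the OA-exposed library and 10.6% at least 2-fold lower. Among the 36560 unigenes of any level with at least 10 fragments in the libraries together, these shares were 18.6% and 15.4%. The split of the members also moved with the scaling of the libraries. When the library totals were taken without the unigenes of 1000 FPKM and over, every log2 ratio shifted by -0.21, and 35 risers stood against 80 fallers, so that 30.4% of the changed unigenes were risers in place of 45.4%.

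**Figure D1:**
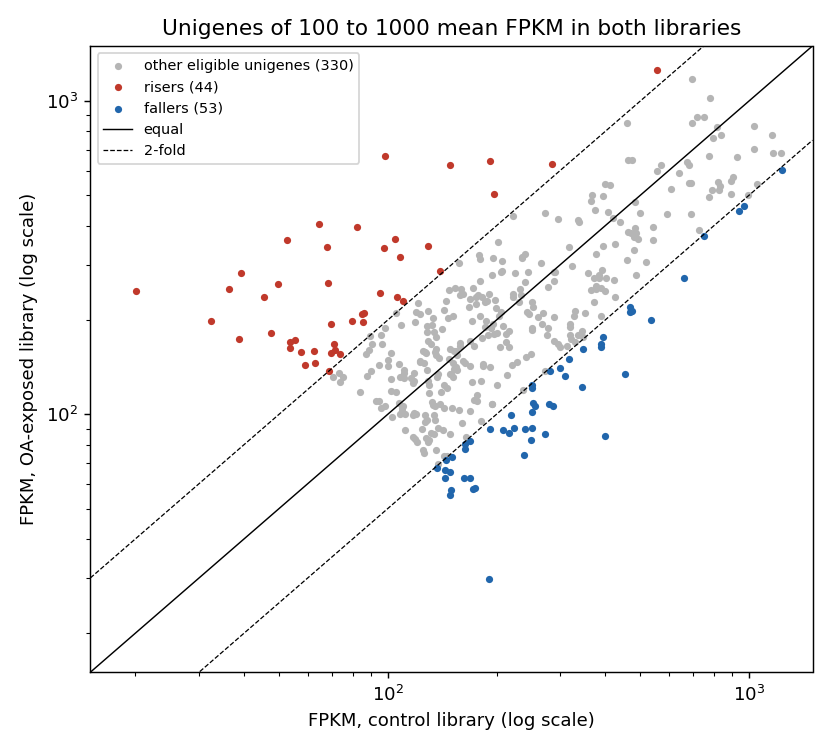
FPKM of the 427 eligible unigenes in the control library (horizontal axis) and the OA-exposed library (vertical axis), both on log scales, with 1 point per unigene and no replicates. The solid line marks equal levels and the dashed lines a 2-fold difference. The 44 risers lie between 20.1 and 558 FPKM in the control library, and the 53 fallers between 137 and 1232 FPKM.

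In the control library most risers were less abundant than the eligible unigenes that were no members. Their FPKM ran from 20.1 to 558 in the control library, with a median of 70.4, and from 138 to 1257 in the OA-exposed library, with a median of 237. The fallers ran from 137 to 1232 FPKM with a median of 251 in the control library, and from 29.8 to 601 FPKM with a median of 99.4 in the OA-exposed library. The 330 eligible unigenes that were no members had medians of 186 and 189 FPKM. In the control library the median riser therefore lay below the median non-member and the median faller above it, and in the OA-exposed library this order was turned around, as the rule on the ratio favours. From bulk tissue, fewer cells of a type cannot be told apart from less RNA per cell.

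The ratios of the risers spread further than those of the fallers. The median ratio of the risers was 2.87 and the largest 12.4, while the median faller was 2.33-fold and the largest 6.4-fold lower in the OA-exposed library. At least 4-fold higher were 13 risers, or 3.04% of the eligible unigenes, and at least 4-fold lower were 2 fallers, or 0.468%. At 10 to 100 FPKM the 4-fold shares were 1.8% higher and 1.42% lower. Of the 13 risers 5 were singletons, and of the 2 fallers 1. The others are contigs, whose ratio can differ from that of their cluster. The cluster of the riser with a ratio of 12.4 had a summed ratio of 1.31. That of a riser with a ratio of 6.81 had 7.2, and that of the 6.4-fold lower faller 0.67. Another 8 risers and 3 fallers differed 3- to 4-fold, and the remaining 23 risers and 48 fallers 2- to 3-fold.

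The riser with the largest ratio was CL4537.Contig1_All, a contig of 639 bp. It had 20.1 FPKM in the control library and 248 FPKM in the OA-exposed library, from 136 and 1679 fragments. Its log2 ratio was 3.63, with an exact 95% counting interval of 3.37 to 3.89. In the order of all unigenes by FPKM it stood at place 2702 in the control library and at place 224 in the OA-exposed library. The only other contig of its cluster, of 627 bp, was itself a faller and is described with it below.

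The other risers of at least 4-fold were mostly of ordinary messenger length, with a median over the 13 of 1873 bp. A contig of 1305 bp had 39.2 FPKM in the control and 282 FPKM in the OA-exposed library, a ratio of 7.19. A singleton of 2399 bp had 36.3 and 252 FPKM, and a contig of 2366 bp had 52.4 and 360 FPKM, ratios of 6.92 and 6.86. A contig of 1567 bp went from 98.0 to 668 FPKM, a ratio of 6.81, which was the second highest level of any riser in the OA-exposed library. Singletons of 1619, 2691 and 1873 bp, which share no cluster with another unigene, had ratios of 6.3, 4.82 and 4.2. Their FPKM were 64.4 and 406, 82.0 and 395, and 149 and 625. Of these 13 risers 5 were singletons.

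The riser with the highest mean FPKM was Unigene4152_All, a singleton of 3626 bp. It had 558 FPKM in the control and 1257 FPKM in the OA-exposed library, from 23048 and 52200 fragments, a ratio of 2.25. Its log2 ratio was 1.17 with a counting interval of 1.15 to 1.19, the narrowest of all risers. It took 0.2% of the control and 0.45% of the OA-exposed fragments and stood at places 128 and 55 in the order of FPKM. Of the fragments by which the risers together differed between the libraries, 11.3% belonged to this unigene. Of the 44 risers, the 5 with the largest difference in fragments held 36.8% and the 10 largest 54.6%.

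The faller with the largest ratio was CL4072.Contig2_All, a contig of 551 bp. It had 191 FPKM in the control library and 29.8 FPKM in the OA-exposed library, from 1099 and 171 fragments, and was 6.4-fold lower. Its log2 ratio was -2.68, with a counting interval of -2.92 to -2.44, and its place in the order of FPKM went from 293 to 1975. The next faller was a singleton of 742 bp with 398 and 85.4 FPKM, from 3177 and 681 fragments, and was 4.66-fold lower. Behind it came singletons of 1494, 1019 and 408 bp, which were 3.38-, 3.21- and 3.15-fold lower. Of the other 48 fallers, none reached 3-fold.

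The faller with the highest mean FPKM was CL3538.Contig2_All, a contig of 410 bp. It had 1232 FPKM in the control and 601 FPKM in the OA-exposed library, from 5097 and 2469 fragments. It was 2.05-fold lower, with a log2 ratio of -1.04 and a counting interval of -1.11 to -0.97 that reached under 2-fold. A contig of 537 bp with 967 and 461 FPKM and a singleton of 630 bp with 940 and 447 FPKM were nearly as abundant. These 3 were 2.05-, 2.1- and 2.11-fold lower, so the most abundant fallers lay close to the threshold.

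**Figure D2:**
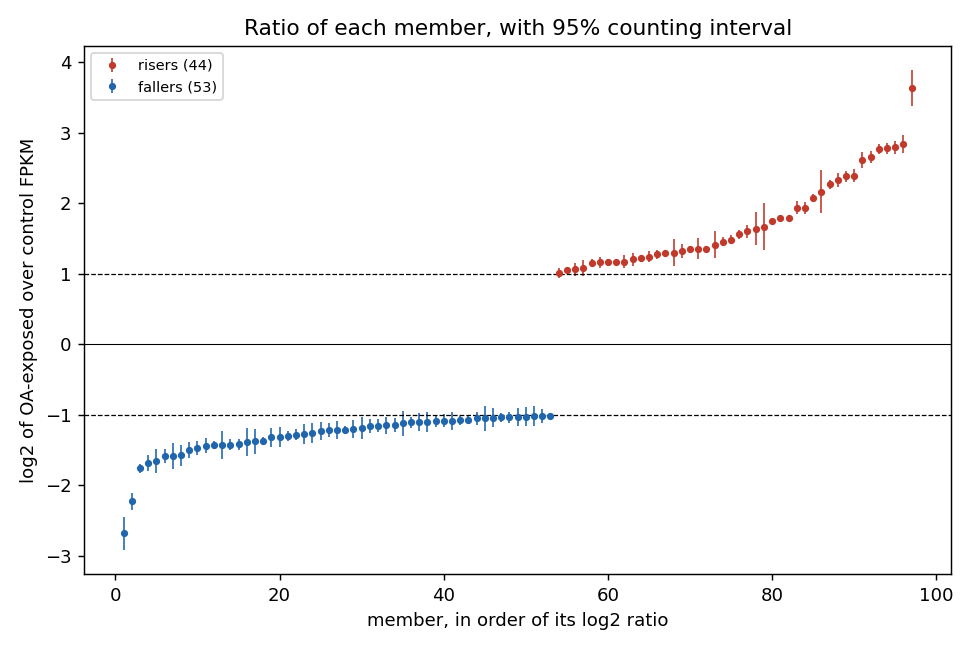
Log2 of the OA-exposed over the control FPKM of each of the 97 members (vertical axis) in order of its value (horizontal axis). Bars are exact 95% counting intervals of the fragments and hold no variation between pools, and dashed lines mark 2-fold. The risers climb to 3.63 and the fallers reach -2.68, and 15 members lie beyond 4-fold, 13 of them risers.

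Counting error was small beside most of these differences. Every member was listed above 0 in both libraries, with 99 to 23048 control fragments in the risers and 171 to 9759 OA-exposed fragments in the fallers. The width of the counting interval had a median of 0.16 on the log2 scale for the risers and 0.23 for the fallers. The interval lay beyond 2-fold throughout for 41 of 44 risers and 37 of 53 fallers. Because the same ratios were selected at 2-fold, these counts describe the members and are no test of them. The intervals cover the counting of fragments only, and they hold neither the variation between pools nor the uncertainty of dividing fragments among similar contigs.

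At the limits of the rule the choice was close. The riser nearest to the threshold, a contig of 2969 bp, had 68.6 and 138 FPKM, a ratio of 2.01, and the nearest unigene under it, a contig of 4517 bp, had 105 and 210 FPKM, a ratio of 1.998. The faller nearest to the threshold, a contig of 2313 bp, had 750 and 372 FPKM, a ratio of 0.496, and a contig of 1993 bp just outside had 273 and 137 FPKM, a ratio of 0.503. On the side of abundance, the member with the lowest mean was a riser of 101.3 FPKM, and the nearest unigene that was 2-fold changed but under the limit had a mean of 99.4 FPKM. The highest mean of a member was 916 FPKM, and the nearest changed unigene above the limit, 2.39-fold lower in the OA-exposed library, had 1036 FPKM.

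Taken as groups, the risers held 1.12% of the control fragments (exact 95% interval 1.11% to 1.13%) and 3.33% of the OA-exposed fragments (3.32% to 3.34%). The fallers held 1.49% (1.48% to 1.5%) and 0.62% (0.62% to 0.63%). The rule on the ratio set the direction of both differences, and the intervals cover the counting of fragments only, not the variation between pools. The other 330 eligible unigenes together kept nearly the same share, 16.3% and 15.9%. The risers thus had 257632 more fragments in the OA-exposed library and the fallers 99243 fewer. In FPKM, which divides by length, the sums of the groups were 4175 and 13190 for the risers and 17085 and 7254 for the fallers. Per length the total difference of the fallers was therefore the larger, and in fragments that of the risers.

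Length, on which the rule set only the limit of 10000 bp, differed between the groups, and the fallers were short. No test was made of this difference. The fallers had a median length of 739 bp, with quartiles of 551 and 1095 bp, against 2072 bp with quartiles of 1305 and 3545 bp for the risers. The eligible unigenes that were no members had a median of 1764 bp. Under 1000 bp were 69.8% of the fallers, 15.9% of the risers and 19.7% of the non-members, and 2000 bp or longer were 7.55%, 54.5% and 41.5%. No faller reached 4000 bp, while 8 risers did, up to 7535 bp. The groups overlapped, since 5 risers and 8 fallers were under 500 bp. The shortest riser, a singleton of 210 bp, had 53.8 and 171 FPKM from 99 and 307 fragments.

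The same order of lengths held among the singletons. The 17 riser singletons had a median of 1851 bp, the 34 faller singletons of 742 bp and the 189 non-member singletons of 1596 bp. Among the contigs the medians were 2155 bp for 27 risers, 717 bp for 19 fallers and 2025 bp for 141 non-members.

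The ratio also followed length across the eligible unigenes, members included. The median log2 ratio was -0.67 for the 88 unigenes of 500 to 1000 bp, -0.21 for the 153 of 1000 to 2000 bp, 0.17 for the 135 of 2000 to 4000 bp and 0.6 for the 30 of 4000 bp and over. The 21 unigenes under 500 bp did not continue this order, with a median of -0.02. They held both directions, 5 risers and 8 fallers. Of the unigenes of 500 to 1000 bp 33.0% were fallers and 2.27% risers, and of those of 4000 bp and over 26.7% were risers and 0.0% fallers. Among the singletons alone the medians from 500 bp upward were -0.67, -0.22, 0.1 and 0.56.

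The 4933 unigenes of 10 to 100 FPKM, which the rule did not use, showed the same order from 500 bp upward. Their median log2 ratios were 0.31 under 500 bp, -0.42 at 500 to 1000 bp, -0.11 at 1000 to 2000 bp, 0.27 at 2000 to 4000 bp and 0.59 at 4000 bp and over. Of those of 500 to 1000 bp 27.7% were at least 2-fold lower, and of those of 4000 bp and over 0.95%. These values come from the same libraries as the members, and the part of length in the choice of members was not tested. When each log2 ratio was taken relative to the median of its length class at 10 to 100 FPKM, an alternative chosen after these values were seen, there were 38 risers and 35 fallers. Of these, 34 and 27 were members. The median lengths were then 1670 and 1144 bp, closer together and in the same order. The order of lengths was not that of all unigenes. Among the 36560 unigenes of any level with at least 10 fragments, those at least 2-fold higher had a median of 881 bp and those at least 2-fold lower of 992 bp, against 2644 and 1064 bp at 10 to 100 FPKM.

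**Figure D3:**
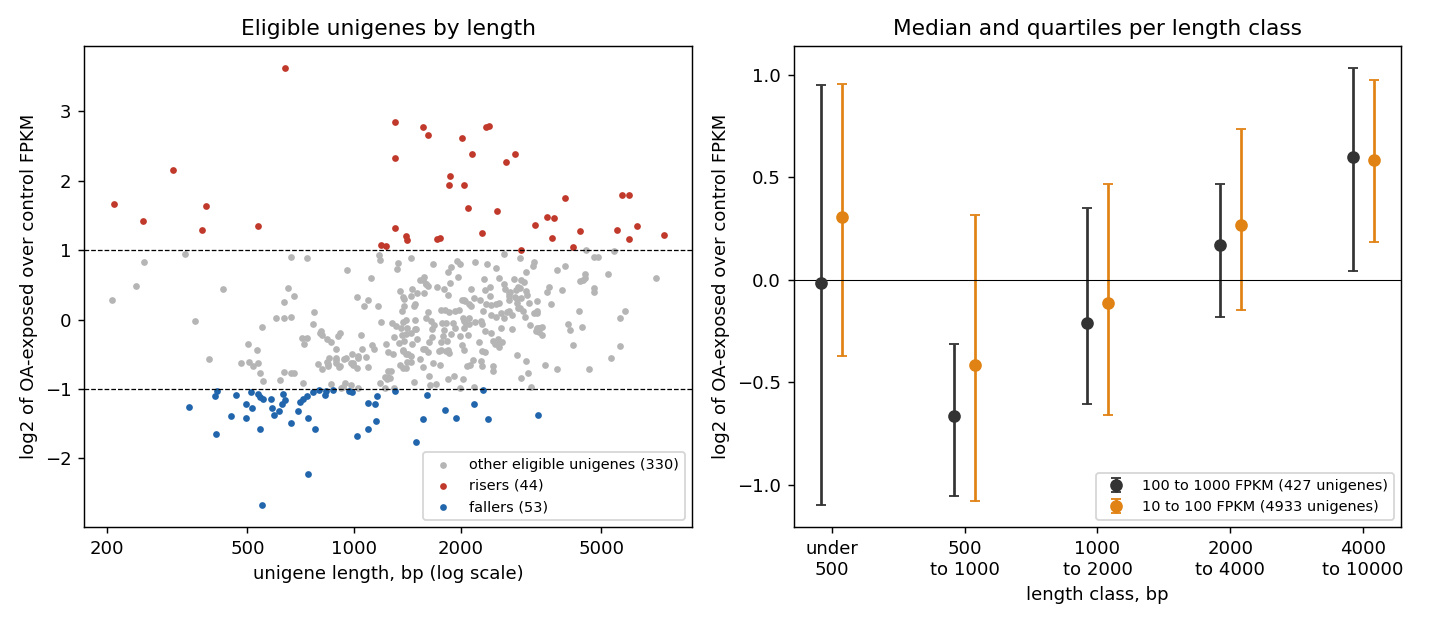
Left, log2 of the OA-exposed over the control FPKM against unigene length on a log scale for the 427 eligible unigenes, with dashed lines at 2-fold. Right, median and quartiles of the same log2 ratio per length class for these and for the 4933 unigenes of 10 to 100 FPKM. From 500 bp upward the medians climb with length in both abundance bands, from -0.67 to 0.6 and from -0.42 to 0.59.

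Singletons were 38.6% of the risers, 64.2% of the fallers and 57.3% of the non-members. The members thus included 46 contigs, from 39 clusters. RSEM, the tool of the authors, divides a fragment that fits several similar sequences among them, which leaves expected counts that are not whole numbers. Whole counts in both libraries, within 0.005, were found for 30 of 34 faller singletons and 15 of 17 riser singletons, but for 8 of 19 faller contigs and 10 of 27 riser contigs. The shares were similar among the non-members, with 156 of 189 singletons and 53 of 141 contigs, so they do not set the members apart. A whole count does not show that no fragment was shared. The other contigs of a cluster are the nearest measure of a member beside its own values, but they are not free of the rule. Some were themselves eligible and are non-members because they differed less than 2-fold, which bears on the counts of 2-fold changes below. Since fragments can be divided between the contigs of a cluster, the others are also not independent of the member.

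For the risers the other contigs went both ways. Of the 27 riser contigs, 22 had other, non-member contigs with at least 10 fragments in the libraries together. The summed FPKM of these was higher in the OA-exposed library for 12, at least 2-fold higher for 9, and lower for 10. Over all unigenes with at least 10 fragments, taken singly, 18.6% were at least 2-fold higher. The 9 include sums of few fragments, 3 and 13 beside the 3944 bp riser and 6 and 29 beside the pair of 2050 and 2017 bp. No counting interval was computed for these sums. Some of these risers share a cluster and thus the same other contigs, which were counted for each. Members of the same cluster were left out of each other's sums, although both were higher where a cluster held 2 risers. Of such pairs, those of 5969 and 7535 bp and of 4362 and 3684 bp count as lower. The pair of 2050 and 2017 bp counts as higher. With the sparser contigs included, some of which were listed at 0 in a library, the sums were higher for 14 of 26 and lower for 12. In a cluster of 3 contigs the member and its relatives were both higher. Its 1567 bp member, described above, had 98.0 and 668 FPKM, and the other contigs summed to 15.4 and 148 FPKM. In another cluster, 2 risers of 2155 and 2853 bp held nearly all fragments, with 49.8 and 261 FPKM and 45.5 and 237 FPKM, and ratios of 5.25 and 5.21.

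In other clusters a riser was higher while its relatives were lower. The 1305 bp riser of a 7-contig cluster held 8.97% of the cluster's control fragments (exact 95% interval 8.28% to 9.7%) and 51.7% of its OA-exposed fragments (50.6% to 52.8%). The remaining contigs together went from 394 to 253 FPKM, so that the cluster as a whole had 433 and 534 FPKM, a ratio of 1.24. The riser of 2366 bp held 31.1% of its cluster's control fragments and 81.1% of the OA-exposed ones, and its only relative had 117 and 84.8 FPKM. A riser of 1406 bp, with 85.3 and 197 FPKM, belonged to a 5-contig cluster whose sum stayed at 947 and 948 FPKM. Of the 27 riser contigs, the share of the cluster's fragments was at least 20 percentage points larger in the OA-exposed library for 4. It changed by under 5 points for 13. Some of the 13 had little room to gain. The risers of 5704, 3243 and 3944 bp held 99.94%, 100% and 99.97% of their clusters' control fragments. The 13 also include both risers of the pairs of 2155 and 2853 bp and of 5969 and 7535 bp.

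The cluster of CL4537.Contig1_All held the largest gain in share of any member. Its 639 bp contig was a riser, with 20.1 and 248 FPKM, and its 627 bp contig was a faller, with 253 and 109 FPKM. The riser held 7.49% of the cluster's fragments in the control library (6.32% to 8.79%) and 69.9% in the OA-exposed library (68.1% to 71.8%). The cluster as a whole had 273 and 357 FPKM, a ratio of 1.31, less than 2-fold.

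The cluster of CL4072.Contig2_All was the other cluster with members of both directions. Its 551 bp faller had 191 and 29.8 FPKM, and a 1795 bp contig that was under 100 FPKM on average had 135 and 22.7 FPKM, a difference of nearly the same size. Its 1720 bp contig was a riser, with 106 and 237 FPKM, and its share of the cluster's fragments went from 34.8% (33.6% to 36.0%) to 87.9% (87.0% to 88.8%). The cluster as a whole had 431 and 289 FPKM, a ratio of 0.67, from 5861 and 5207 fragments. Both clusters had counts that were not whole in single contigs and cluster sums that were whole. This was so, within 0.05, in 17 of the 26 clusters with a contig count that was not whole.

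For most of the faller contigs that had other contigs to compare, these were lower as well. Of the 19 faller contigs, 14 had other contigs with at least 10 fragments in the libraries together. The summed FPKM of these was lower in the OA-exposed library for 11, at least 2-fold lower for 6, and higher for 3. The median log2 ratio was -0.77. The 6 include sums of few fragments, 16 and 7 beside the 717 bp faller and 9 and 3 beside the 696 bp faller. No counting interval was computed for these sums. One of the 11 is the cluster of CL4072.Contig2_All, whose 1795 bp contig also counts as opposite for its riser. With the sparser contigs included, the sums were lower for 12 of 16. Whether fallers and risers differed in this was not tested. Over all 36560 unigenes with at least 10 fragments, taken singly, 15.4% were at least 2-fold lower. The share that was lower by any amount was not counted. Unigenes of 500 to 1000 bp at 10 to 100 FPKM had a median log2 ratio of -0.42. The part of length in the values of the other contigs was not tested. The cluster of CL3538.Contig2_All was lower as a whole. Its other contigs summed to 1933 and 923 FPKM, a log2 ratio of -1.07 beside -1.04 for the member. A cluster of 2 contigs of 553 and 582 bp held 2 fallers, with 474 and 213 FPKM and with 468 and 212 FPKM, and their counts were whole. The 3 exceptions included the 1943 bp faller of a cluster with 7 listed IDs, whose contigs are numbered up to 8. This faller had 239 and 89.4 FPKM while the cluster sum was 662 and 659 FPKM. A 666 bp faller with 344 and 122 FPKM stood beside other contigs that summed to 167 and 252 FPKM.

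Summed over all contigs of a cluster, most but not all of the differences stayed beyond 2-fold. Of the 21 clusters with risers only, the summed FPKM was higher in the OA-exposed library in 21 and at least 2-fold higher in 16, with a median log2 ratio of 1.24. Of the 16 clusters with fallers only, it was lower in 16 and at least 2-fold lower in 9, with a median of -1.03. Some of these sums were nearly level. The sum of 947 and 948 FPKM given above counts as higher by a log2 ratio of 0.0019 and turns to lower under each other scaling of the libraries, and that of 662 and 659 FPKM counts as lower by -0.0048. The riser cluster of the 2969 bp contig, at 0.14, turns under the shift of -0.21. These sums hold the members themselves, so their direction is in part set by the rule, and those of the clusters with both directions are given above.

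**Figure D4:**
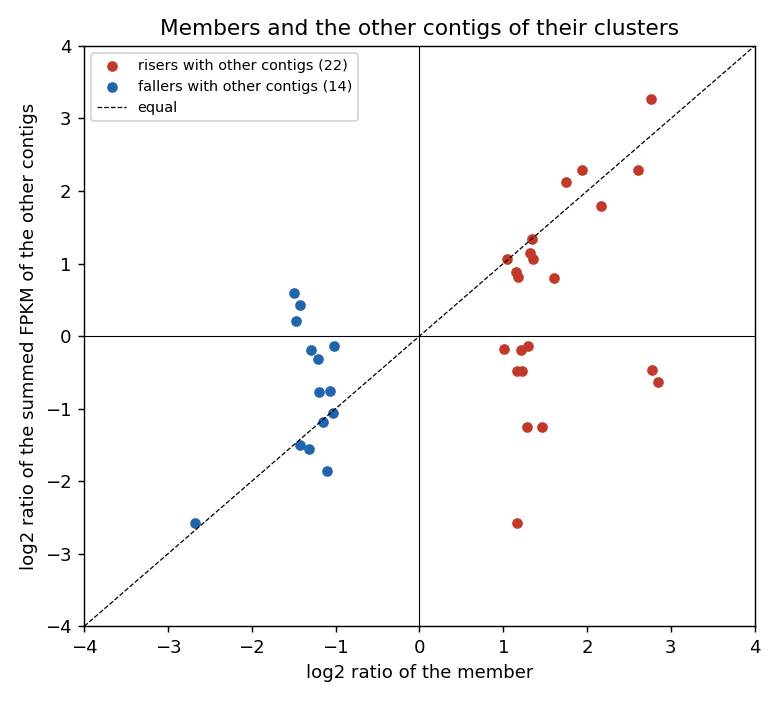
Log2 of the OA-exposed over the control FPKM of each member that is a contig (horizontal axis) and of the summed FPKM of the other, non-member contigs of its cluster with at least 10 fragments (vertical axis). Points on the dashed line moved equally. The other contigs were higher for 12 of 22 risers and lower for 11 of 14 fallers, and the points of the risers lie on both sides of 0. Members of the same cluster are left out of the sums, and risers that share a cluster share their vertical value.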

How the data were processed

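Gill RNA of 1 control and 1 OA-exposed library was analysed. Reads had been cleaned with SOAPnuke, assembled de novo with Trinity and TGICL, aligned to the unigenes by Bowtie and counted by RSEM. For each unigene the authors deposited the length, the expected count, a raw RSEM estimate of fragments, and the FPKM. A deposited comparison table repeats the FPKM, with 0.01 in place of 0, and its values matched both libraries in 59688 of 59688 unigenes. Its fold changes, p-values, FDR and calls were not used.

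Members were selected from the listed FPKM. The members and lists were chosen with earlier results of these data known, and the length classes after seeing the data. Named unigenes are, per direction, the member with the largest ratio and the member with the highest mean FPKM of the others. With 1 library per condition no model has residual degrees of freedom, so no p-value is given. Intervals are exact conditional binomial (Clopper-Pearson) at 95% on rounded counts, computed with scipy 1.17.1, moved to the FPKM ratio. Reads are not independent molecules, so they cover counting error only. The rule and intervals were tried on simulated data that held counting error only and changes well beyond the threshold. That trial does not cover variation between pools, the division of fragments among contigs or ratios near the threshold. Alternatives used edgeR 4.0.16 and DESeq2 1.42.0 for scaling factors only, other limits, folds and filters.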

Additional observations from a re-analysis of the deposited data

How the results depend on the processing

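Of 427 eligible unigenes, 44 risers and 53 fallers were members. TMM factors shifted every log2 ratio by -0.1 and gave 40 and 69, with all 53 fallers and 40 of the 44 risers shared. Upper-quartile and median-of-ratios factors each gave 43 and 58. Library totals without the unigenes of 1000 FPKM and over gave 35 and 80. Expected counts divided by the library total left both numbers as they were, and 1 FPKM added to both libraries gave 43 and 53. The geometric mean gave 31 and 46. A lower limit of 50 FPKM gave 110 and 128, and of 200 FPKM 15 and 20. A threshold of 1.5-fold gave 82 and 122 and of 3-fold 21 and 5. Singletons alone gave 17 and 34. Without an exclusion of clusters there were 45 and 53, from 500 bp upward 39 and 45, and with at least 100 fragments in each library 43 and 53. Centred on the length class, an alternative chosen after seeing the data, there were 38 and 35. The median riser was longer than the median faller under each of these. The other contigs went the way of 14 of 26 risers and 12 of 16 fallers by FPKM, of 14 of 23 and 12 of 16 by expected counts, and of 12 of 22 and 11 of 14 with at least 10 fragments. No paired analysis was possible because each condition has 1 library, and for the same reason no replicate could be left out.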

Other observations

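Among the 436 unigenes of 100 to 1000 FPKM, 8 were left out as contigs of large clusters and 1 for its length. Only 1 of these 9 differed at least 2-fold. It was a contig of 206 bp from a cluster of 15 listed IDs, with 81.0 FPKM in the control library and 222 FPKM in the OA-exposed library, from 145 and 390 fragments, a ratio of 2.74.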
